A study of Arabidopsis thaliana with 12 samples.

Results

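*HAI1*, *HAI2*, *PYL6* and *SNRK2.8* belong to the signaling core of the plant hormone abscisic acid (ABA), and each of these 4 genes, of 14048 genes with a name on the array, was measured by 1 of the 22746 probe sets analyzed. The 4 probe sets were chosen by gene name. *HAI1* (AT5G59220, probe set 247723_at) and *HAI2* (AT1G07430, 261077_at) encode group A protein phosphatases 2C, *PYL6* (AT2G40330, 263836_at) encodes an ABA receptor, and *SNRK2.8* (AT1G78290, 260774_at) encodes a kinase. None of the 4 probe sets was named by the array annotation used here. All 4 took their names from the study's supplementary lists of genes that changed with salt in the overexpressor. Their salt changes in the overexpressor are therefore a description without a test, whereas the wild-type arrays played no part in those lists. The wild-type tests are not separate from the lists, because their error estimate also used the overexpressor arrays. Salt changes in the wild-type also broadly followed those in the overexpressor, as given below.

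ABA accumulates when plants face drought or salt. Receptors of the PYR/PYL family bind the hormone and then block group A phosphatases, which in its absence keep SnRK2 kinases dephosphorylated and inactive. Kinases released in this way phosphorylate transcription factors and ion channels, and target genes of dehydration tolerance are switched on. The HAI phosphatases act on the restraining side of this circuit and are themselves known as ABA-induced genes. SnRK2.8 is a subclass 2 kinase, a class that ABA activates weakly compared with the subclass that carries most of the ABA response.

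Whole Arabidopsis seedlings of the Columbia strain were compared in 4 groups with 3 independent biological replicates each, and each replicate was hybridized to its own ATH1 GeneChip. The groups were the wild-type without salt (mock), the wild-type in 200 mM NaCl, and the same treatments of a line carrying 35S:PtSnRK2.7:NOS. Seedlings were transferred at an age of 7 days and sampled 2 days later. *PtSnRK2.7* is a poplar SnRK2 gene, driven here by a broadly active viral promoter, and the overexpressor was represented by a single line, line 20. The paper used T2 lines, not homozygous T3 lines, for its salt treatments. The sample titles spell the transgene PrSnRK2.7. Its transcript was not checked here, because no probe set on the Arabidopsis array was assigned to the poplar gene. Values are MAS5 signals on a linear scale, and differences are on the log2 scale. A difference was called at an adjusted p under 0.05 from limma, after Benjamini-Hochberg adjustment over all 22746 probe sets.

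The salt-treated wild-type arrays were uneven, and replicate 2 differed most in the size of its response. Over 2325 probe sets called salt-responsive in the overexpressor (a fold change above 3 with an adjusted p under 0.01), the change on each wild-type salt array was regressed on the mean change of the overexpressor. The slope was 0.921 for replicate 1, 0.584 for replicate 2 and 0.848 for replicate 3. The corresponding slopes of the 3 overexpressor salt arrays, over 1956 probe sets called in the wild-type, were 0.935 to 0.997. The median replicate SD of log2 signals was 0.36 in the salt-treated wild-type and 0.20 to 0.21 in the other groups. Array quality weights from limma were 0.227 for wild-type salt replicate 2 and 0.369 for replicate 1, against 0.821 to 2.45 for the other 10 arrays. Leaving out replicate 1 raised the number of probe sets called between the genotypes under salt from 457 to 1052, and leaving out replicate 2 raised it to 1945. The number fell to 96 without wild-type salt replicate 3. Without overexpressor salt replicates 1, 2 or 3 it fell to 31, 166 or 93. Differences of the 4 genes that use the salt-treated wild-type are given with and without replicate 2, and without replicate 1 where that moved them further.

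The phosphatase gene *HAI1* rose with salt in the wild-type. Its signals were 68.4, 73.0 and 83.1 in the mock-treated wild-type and 782, 184 and 535 under salt, in the order of replicates 1, 2 and 3. The lowest salt array, replicate 2, was still above every mock array. In the overexpressor, signals were 50.2, 66.5 and 79.5 under mock treatment and 607, 517 and 561 under salt, again without overlap. Group means were 74.8 ± 7.51 (SD, n = 3 arrays) and 500.1 ± 300.4 for the wild-type, against 65.4 ± 14.7 and 562 ± 44.8 in the overexpressor. In the wild-type this was a 5.70-fold increase, a log2 change of 2.51 (SE 0.40, 95% interval 1.65 to 3.37, adjusted p = 0.00033, limma). That SE also draws on the closer overexpressor arrays. It was 0.48 when limma was fitted to the wild-type arrays alone (adjusted p = 0.0079). Without replicate 2 the wild-type change was 3.12. The overexpressor changed by 3.12 on the log2 scale, or 8.72-fold.

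*HAI2*, the second phosphatase gene, rose as well and had the most uneven wild-type replicates of the 4 genes. Signals in the mock-treated wild-type were 47.5, 27.5 and 39.6, near the lower end of the arrays, whose 20th percentiles lay at 20.6 to 27.8. Under salt they were 609, 70.7 and 513. Replicate 2 exceeded the highest mock array by far less than replicates 1 and 3 did, and the log2 SD of the 3 salt arrays was 1.73. The overexpressor gave 55.8, 48.0 and 34.0 under mock treatment and 453, 325 and 436 under salt, with a log2 SD of 0.26 under salt. Group means were 38.2 ± 10.1 (SD, n = 3 arrays) and 398 ± 287 in the wild-type and 46.0 ± 11.1 and 405 ± 69.6 in the overexpressor. The linear means under salt were thus close, while the wild-type SD was large beside its mean. The wild-type change was 2.91 on the log2 scale (SE 0.62, 95% interval 1.57 to 4.25, adjusted p = 0.0024, limma), and 3.91 without replicate 2. That SE also draws on the closer overexpressor arrays and understates the wild-type spread. It was 0.76 when limma was fitted to the wild-type arrays alone (adjusted p = 0.025). In the methods' t-test it was 1.02 (adjusted p = 0.230). The overexpressor changed by 3.15, or 8.89-fold.

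The receptor gene *PYL6* moved in the opposite direction. Wild-type signals fell from 383, 410 and 293 under mock treatment to 57.1, 131 and 128 under salt. Here replicate 1, not replicate 2, was the array apart, and all 3 salt arrays lay below all mock arrays. In the overexpressor, signals were 322, 261 and 274 under mock treatment and 89.0, 49.9 and 72.1 under salt, without overlap. Group means were 362 ± 61.1 (SD, n = 3 arrays) and 106 ± 42.1 for the wild-type and 286 ± 32.2 and 70.3 ± 19.6 in the overexpressor. The wild-type change was -1.86 on the log2 scale (SE 0.31, 95% interval -2.53 to -1.19, adjusted p = 0.00049, limma). It was -2.07 without replicate 2 and -1.46 without replicate 1. The change in the overexpressor was -2.06, a 4.17-fold decrease.

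The kinase gene *SNRK2.8* also fell. Its wild-type signals were 370.3, 599 and 423 under mock treatment and 116, 225 and 108 under salt. The highest salt array was replicate 2, and it stayed below the lowest mock array. Overexpressor signals were 316, 389.6 and 372 under mock treatment and 126, 89.2 and 90.8 under salt, which did not overlap. Group means were 464 ± 119.7 (SD, n = 3 arrays) and 149.9 ± 65.4 in the wild-type and 359 ± 38.6 and 102 ± 20.5 in the overexpressor. The wild-type change was -1.68 on the log2 scale (SE 0.27, 95% interval -2.27 to -1.09, adjusted p = 0.0004, limma) and -2.02 without replicate 2. In the overexpressor it was -1.83, a 3.56-fold decrease. Whether the poplar transcript binds this probe set was not tested, and the signal was not higher on the overexpressor arrays than on the wild-type arrays as a group.

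**Figure D1:**
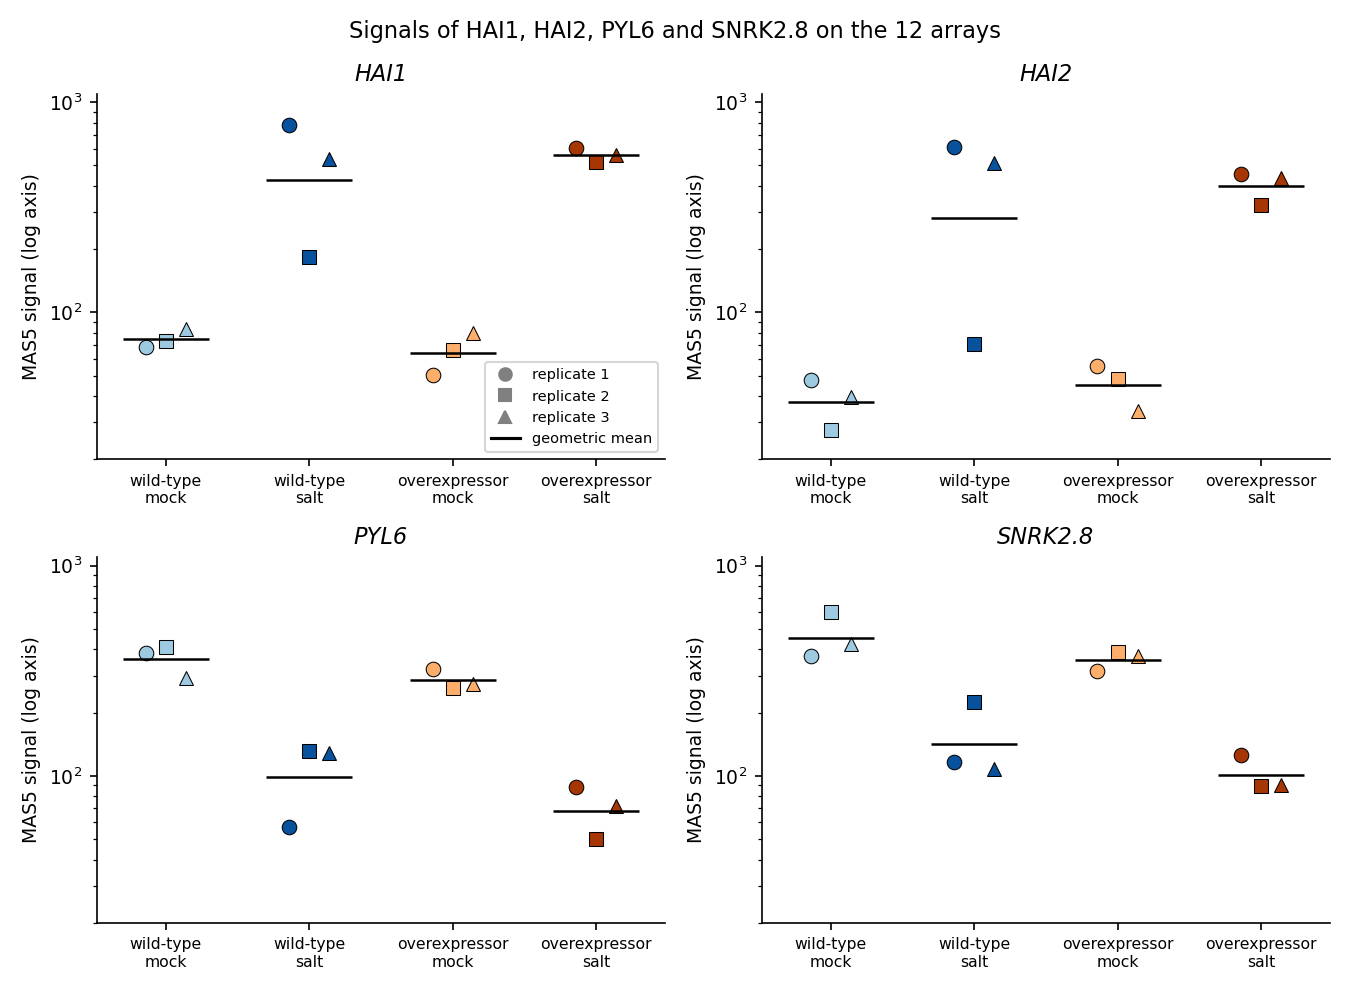
MAS5 signals of *HAI1*, *HAI2*, *PYL6* and *SNRK2.8* on a log axis for the 4 groups, with 1 point per array shaped by replicate number and a bar at the geometric mean of 3 arrays. Salt and mock arrays do not overlap in either genotype, and wild-type salt replicate 2 is the lowest salt array for *HAI1* (184) and *HAI2* (70.7) and the highest for *SNRK2.8* (225).

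All 4 genes thus passed the wild-type salt test in limma, 2 higher and 2 lower. They were named by lists of genes changed with salt in the overexpressor, which wild-type arrays followed with slopes of 0.584 to 0.921. The calls and their directions are therefore no independent evidence. Shares over all probe sets, given below, are not the shares among listed genes. The study's own lists of genes that changed with salt in the wild-type hold none of the 4. Those lists required a fold change above 3 and a p under 0.01. The calls made here also have to be read against a broad response. In the wild-type, 39.1% of all probe sets were called, 17.2% higher and 21.9% lower. Arrays without overlap were also common, at 21.1% of probe sets in the higher and 26.8% in the lower direction. Under the stricter limits of a 3-fold change and an adjusted p of 0.01, which 4.62% of probe sets passed as higher and 3.99% as lower, both phosphatase genes remained among the higher and *PYL6* and *SNRK2.8* among the lower. In the overexpressor, where the lists had chosen the genes, 41.1% of probe sets were called (17.1% higher, 24.0% lower), and arrays did not overlap for 23.3% in the higher and 31.7% in the lower direction. All 4 calls in the wild-type were also made in each of 12 fits that left out 1 array. Leaving out an overexpressor array could alter only the spread in these fits, not the wild-type change. With limma fitted to the wild-type arrays alone all 4 were called, but *HAI2* (adjusted p = 0.025) no longer met the stricter limit of 0.01. With the methods' t-test, which estimates the spread from only the groups compared, the adjusted p were 0.134 to 0.230 and none of the 4 passed, and that test called 4 of the 22746 probe sets. RNA came from whole seedlings, so that fewer cells of a type and less RNA per cell cannot be told apart.

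**Figure D2:**
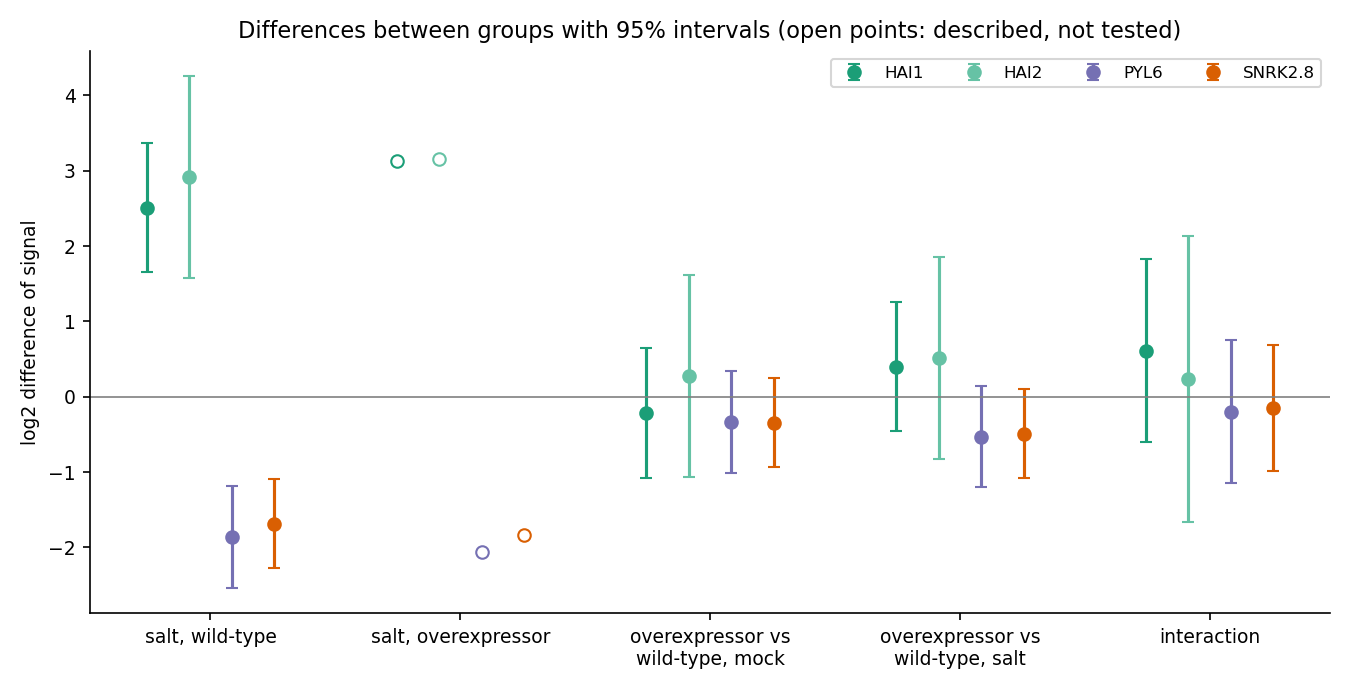
Log2 differences of signal for the 4 genes in 5 comparisons, with 95% intervals from limma. The overexpressor salt changes are open points without intervals because the lists used those arrays. The wild-type salt intervals lie away from 0 for all 4 genes, and the intervals of both genotype comparisons and of the interaction include 0.

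The genotypes were compared next, first without salt. All genotype comparisons and the interaction use overexpressor arrays, mock or salt, on which the naming lists also rest, so that these values are not independent of how the genes were named. *HAI1* differed by -0.21 on the log2 scale (overexpressor minus wild-type, 95% interval -1.07 to 0.64, adjusted p = 0.952, limma). *HAI2* differed by 0.27 (-1.07 to 1.61, adjusted p = 0.962), with overlapping arrays as for *HAI1*. *PYL6* differed by -0.33 (-1.01 to 0.34, adjusted p = 0.843) and *SNRK2.8* by -0.34 (-0.94 to 0.25, adjusted p = 0.798). None of the 4 was called, among 0.563% of all probe sets that were. The arrays of both genotypes overlapped for each gene, while 10.5% of all probe sets had non-overlapping arrays with the overexpressor higher and 9.72% with it lower. The intervals still allow differences of about 1 on the log2 scale for *PYL6* and *SNRK2.8* and larger ones for *HAI2*. They rest on 1 spread estimate shared by all 4 groups, which the uneven salt-treated wild-type arrays widened for a comparison without them. For *HAI2* the log2 SD was 0.40 and 0.37 in the mock-treated wild-type and overexpressor, against 1.73 in the salt-treated wild-type. For *HAI1* it was 0.14 and 0.33, against 1.08. With only the mock arrays fitted, 365 of all probe sets were called instead of 128.

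Under salt, none of the 4 genes was called different between the genotypes, against 2.01% of all probe sets. *HAI1* was 0.40 higher in the overexpressor (95% interval -0.46 to 1.26, adjusted p = 0.667, limma) and *HAI2* 0.51 higher (-0.83 to 1.85, adjusted p = 0.735). Both differences changed sign, to -0.21 and -0.48, when wild-type salt replicate 2 was left out, so that the direction of the phosphatase difference rested on that array. *PYL6* was lower by -0.53 (-1.20 to 0.14, adjusted p = 0.414) and *SNRK2.8* by -0.49 (-1.08 to 0.10, adjusted p = 0.380). Without wild-type salt replicate 2 these were -0.32 and -0.16. Without replicate 1, the lowest wild-type salt array of *PYL6*, the *PYL6* difference was -0.93 (adjusted p = 0.051, limma), and with array quality weights it was -0.76 (adjusted p = 0.067). The limma intervals under salt also draw on the closer mock arrays and understate the wild-type salt spread, with log2 SDs of 1.08 (*HAI1*) and 1.73 (*HAI2*). In the methods' t-test the adjusted p of the 4 genes were 0.768 to 0.908. In the order of group means, the neighbours with the same treatment overlapped for every gene, and only the step between mock and salt groups separated the arrays. Over all probe sets, 9.32% had salt arrays without overlap that were higher in the overexpressor and 10.0% had ones that were lower.

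The size of the salt response itself was compared as the interaction of genotype and salt. *HAI1* gave 0.61 (overexpressor change minus wild-type change, 95% interval -0.60 to 1.83, adjusted p = 0.721, limma), 0.01 without wild-type salt replicate 2 and 1.05 without replicate 1. *HAI2* gave 0.24 (-1.66 to 2.14, adjusted p = 0.952), -0.75 without replicate 2 and 0.80 without replicate 1. For *PYL6* and *SNRK2.8* the values were -0.20 (-1.15 to 0.75, adjusted p = 0.907) and -0.15 (-0.98 to 0.69, adjusted p = 0.923), and 0.01 and 0.19 without replicate 2. Without replicate 1 they were -0.59 and -0.29. None was called, against 0.299% of all probe sets. For *HAI2*, a difference between the genotypes of up to 2 on the log2 scale lies within the interval.

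**Figure D3:**
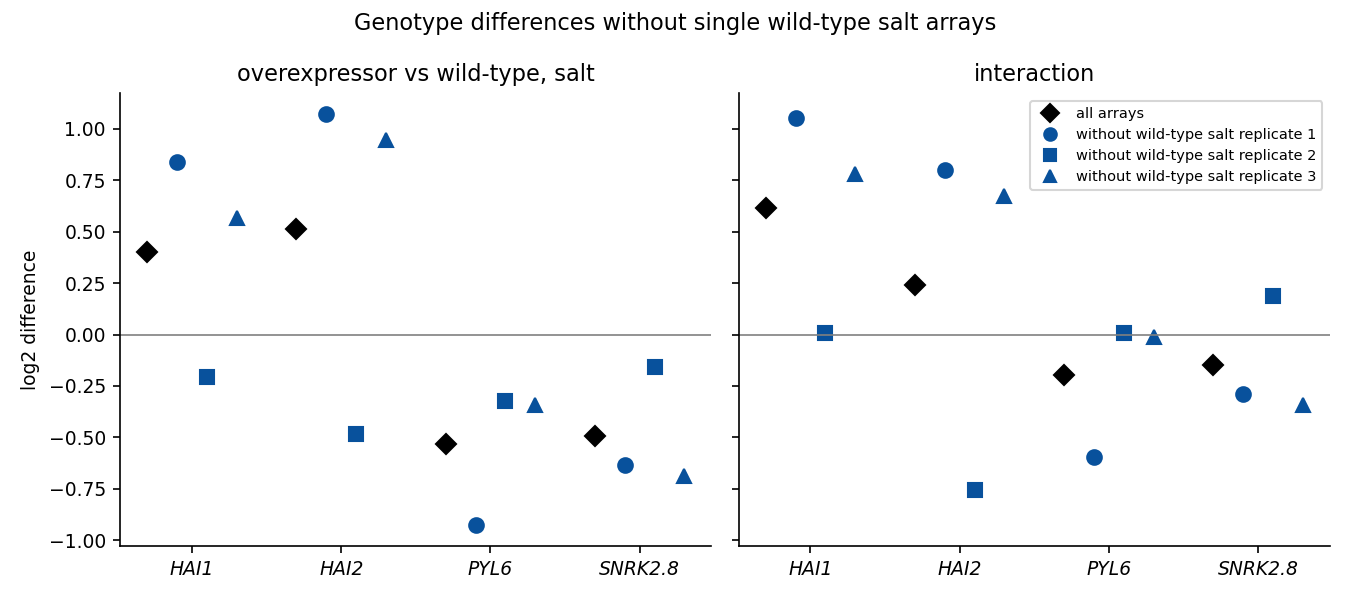
Log2 genotype difference under salt (left) and interaction (right) with all arrays and without each wild-type salt array. Leaving out replicate 2 moves *HAI1* from 0.40 to -0.21 and *HAI2* from 0.51 to -0.48 under salt, and *HAI2* from 0.24 to -0.75 in the interaction.

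Each array was then set against the mean of the mock arrays of its own genotype. In the overexpressor the log2 change of *HAI1* was 3.24, 3.01 and 3.13 on replicates 1 to 3, and that of *HAI2* was 3.33, 2.85 and 3.28. These arrays lay close together. In the wild-type, *HAI1* changed by 3.39, 1.3 and 2.84, and *HAI2* by 4.03, 0.93 and 3.78. On replicates 1 and 3 the wild-type change of *HAI2* was thus above that of every overexpressor array, and on replicate 2 below all of them. The wild-type arrays of *PYL6* gave -2.65, -1.45 and -1.48 and its overexpressor arrays -1.68, -2.51 and -1.98, so that the genotypes were interleaved. For *SNRK2.8* the wild-type arrays gave -1.97, -1.01 and -2.07, and the overexpressor arrays gave -1.51, -2.0 and -1.98, of which replicate 1 had the smallest change.

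**Figure D4:**
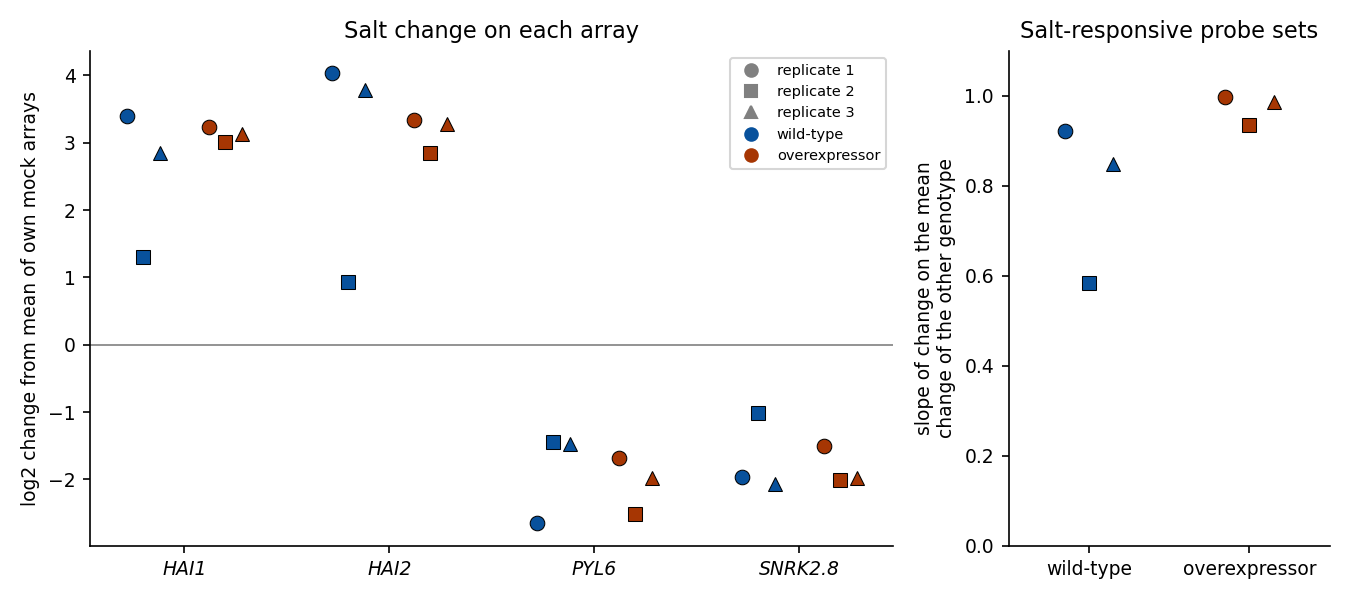
Left, log2 salt change of the 4 genes on each array from the mean of the mock arrays of its genotype. Right, slope of the change per array against the mean change of the other genotype over salt-responsive probe sets, 0.584 on wild-type replicate 2 and 0.848 or more on the others.

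The size of the change on wild-type salt replicate 2, relative to the other wild-type salt arrays, was not equal among the 4 genes. The change on that array, as a percentage of the mean change on replicates 1 and 3, was 23.7% for *HAI2*, 41.8% for *HAI1*, 50.2% for *SNRK2.8* and 70.1% for *PYL6*. Over 2162 salt-responsive probe sets with a mean change of at least 1 on the log2 scale on those replicates, the median was 59.7% and the quartiles were 44.1% and 77.8%. Both phosphatase genes fell below the lower quartile. Of 1045 such probe sets that were higher under salt, 5.17% had a smaller percentage than *HAI2* and 13.9% a smaller one than *HAI1*. Among 1117 that were lower, the corresponding shares were 46.1% for *SNRK2.8* and 76.3% for *PYL6*. For *PYL6* the change on replicate 2 (-1.45) was close to that on replicate 3 (-1.48). Its percentage therefore depends on the larger change on replicate 1 (-2.65) and is no shortfall of replicate 2 alone. All these percentages are descriptions of 1 array and have no test.

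**Figure D5:**
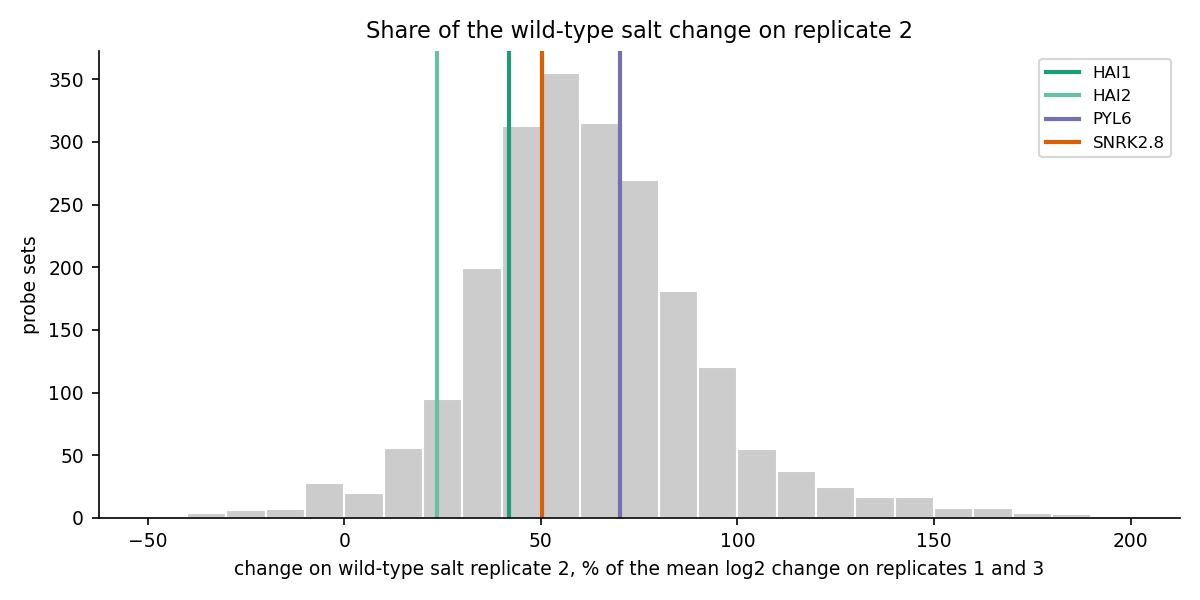
Histogram of the log2 change on wild-type salt replicate 2 as a percentage of the mean change on replicates 1 and 3, over 2162 salt-responsive probe sets (19 lie outside the axis). Lines mark *HAI2* (23.7%), *HAI1* (41.8%), *SNRK2.8* (50.2%) and *PYL6* (70.1%) against a median of 59.7%. The *PYL6* changes were -1.45 on replicate 2, -1.48 on replicate 3 and -2.65 on replicate 1.

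Markers of shoot tissue moved with salt, unevenly among the wild-type salt arrays. Of 9 listed photosynthetic shoot genes, 2 were measured, *RCA* (Rubisco activase) and *CA1* (carbonic anhydrase). Their summed signal was 38315 to 42150 in the mock-treated wild-type and 7955 to 32238 under salt, and 34633 to 51310 and 11994 to 12711 in the overexpressor. The log2 change of *CA1* on wild-type salt replicates 1, 2 and 3 was -4.11, -0.60 and -1.92, and that of *RCA* was -1.66, -0.12 and -0.80. Both were thus largest on replicate 1 and smallest on replicate 2. Of 9 root genes, 3 were measured (*EXPA7*, *EXPA18* and *CASP1*), with summed signals of 1579 to 1603 and 779.7 to 1446 in the mock- and salt-treated wild-type and 1499 to 2226 and 684 to 1015 in the overexpressor. Among these, only *CASP1*, a gene of the root endodermis, was called lower in the wild-type, by -1.35, and it changed by -2.11 in the overexpressor. *EXPA7* and *EXPA18*, of root hairs, were not called in either genotype, with changes of 0.37 and -0.21 (wild-type) and of -0.09 and 0.12 (overexpressor). Of 3 guard cell genes *FAMA* was measured, at 142.7 to 197.5 and 112.0 to 157.1 in the wild-type and 144.1 to 172.6 and 109.3 to 151.7 in the overexpressor. *SEN1*, 1 of 4 senescence genes and also known as dark-inducible, was at 1838 to 2722 and 123 to 536 in the wild-type and 5480 to 6905 and 132 to 145 in the overexpressor. *CA1*, *CASP1* and *SEN1* took their names from the study's lists, which hold them as lower with salt in the overexpressor. Their falls in that genotype are therefore a description. *RCA*, *EXPA7*, *EXPA18* and *FAMA* were named by the annotation. None of 4 seed genes was measured. The part of these shifts in the changes of the 4 core genes was not tested.

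The rest of the pathway was covered only in part, because many probe sets had no gene name here. *PYL6* was the only measured gene of 14 receptors, *HAI1* and *HAI2* of 9 group A phosphatases, and *SNRK2.8* of 10 SnRK2 kinases. No statement can therefore be made on these families as a whole. None of 8 ABA-dependent transcription factor genes was measured. Of 10 genes of ABA synthesis and breakdown 1 was measured, *CYP707A1*, which encodes an ABA 8'-hydroxylase of hormone breakdown. Its signal was 103 ± 9.57 (SD, n = 3 arrays) and 1268 ± 506 in the mock- and salt-treated wild-type and 101 ± 28.1 and 1177 ± 102 in the overexpressor. This gene too was named from the salt lists, of both genotypes, and its changes of 3.52 and 3.57 on the log2 scale are a description. Of 5 genes listed for membrane proteins, 1 was measured, the anion channel gene *SLAH3*. *SLAH3* was named by the list of genes higher with salt in the overexpressor, so that its change there is a description. It rose from 203 ± 6.99 to 3222 ± 1568 in the wild-type, a log2 change of 3.83 (adjusted p = 4.8e-06, limma) or 4.35 without wild-type salt replicate 2, and changed by 3.75 in the overexpressor. On wild-type salt replicate 2 the changes of *CYP707A1* and *SLAH3* were 69.7% and 64.4% of the mean of the other arrays, above the shares of both phosphatase genes.

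Downstream of the kinases, 11 of 19 listed ABA-responsive target genes were measured, 4 of them named by the annotation and the others by the salt lists, which are no independent evidence of direction. In the wild-type, 8 were higher and 1 was lower under salt, and 2 were not called, where 17.2% of all probe sets were higher and 21.9% lower, with a median log2 change of 1.57 against -0.07 over all probe sets. The 4 genes named by the annotation had a median of 0.72, with *COR15A* and *XERO2* higher and *COR47* lower. In the overexpressor 10 of the 11 were higher and 0 lower, against 17.1% and 24.0% of all probe sets, a count that the naming of 7 of them by its own salt lists helped to fix. Of the 4 named by the annotation, 3 were higher there, with a median of 2.0. *RD20*, a caleosin gene, changed by 4.49 and 5.94 (wild-type and overexpressor). *RD26*, a NAC transcription factor gene, changed by 2.35 and 2.46, and *ATHB7*, a homeodomain transcription factor gene, by 1.16 and 2.14. *COR15A*, which encodes a chloroplast-protecting protein and was named by the annotation, rose by 2.69 (adjusted p = 0.0080, limma) and 6.66 (adjusted p = 1.3e-05), and its wild-type change became 3.51 when wild-type salt replicate 2 was left out and 1.70 when replicate 1 was. The lower gene in the wild-type was *COR47*, a dehydrin gene, at -0.62 (adjusted p = 0.036, limma). That call was lost without wild-type salt replicate 2, where the change was -0.49 (adjusted p = 0.091), and also without wild-type salt replicate 3 or any wild-type mock array.

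Some of these targets were called between the genotypes. Under salt, 4 of 11 were higher in the overexpressor, *COR47*, *ERD10*, *COR15A* and *COR15B*, against 1.23% of all probe sets in this direction. The first and the last 2 were named by the annotation and *ERD10* by the salt lists. The median difference of the 4 targets named by the annotation was 1.27 on the log2 scale and 1.01 without wild-type salt replicate 2, against -0.03 and -0.01 over all probe sets. The count rested on single arrays. Leaving out wild-type salt replicate 1 gave 7 and leaving out replicate 2 gave 5, *XERO2* being added, but it was 0 without wild-type salt replicate 3, overexpressor salt replicate 1 or overexpressor salt replicate 3. It was 1 without overexpressor salt replicate 2, and 3 or 4 without any single mock array.

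*COR15B* had an interaction of 1.80 (adjusted p = 0.025, limma) and was the only one of the 11 called there, against 0.246% of all probe sets in the higher direction. Its signal was 270 ± 52.4 (SD, n = 3 arrays) and 326 ± 33.1 in the mock- and salt-treated wild-type and 166 ± 38.8 and 694 ± 106 in the overexpressor. Without wild-type salt replicate 2 its interaction was 1.75 (adjusted p = 0.0099) and that of *COR15A*, 3.14, was called as well (adjusted p = 0.044). The number of targets called was 6 without wild-type salt replicate 1. It was 0 without wild-type salt replicate 3, any overexpressor salt array, wild-type mock replicates 2 or 3, or overexpressor mock replicate 3. Without salt, 0 of the 11 were called in limma. Whether the target genes differed more between the genotypes than the core genes did was not tested.

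On wild-type salt replicate 2, the changes of the 11 targets as a percentage of the mean of replicates 1 and 3 were spread widely. *XERO2* (5.13%), *RAB18* (18.4%), *ATHB7* (18.9%), *RD29A* (21.9%) and *COR15A* (29.5%) lay below or near *HAI2*. *RD26* (43.2%) and *ADH1* (49.3%) lay near *HAI1* and *SNRK2.8*, and *COR15B* (60.2%) and *RD20* (66.5%) were higher. For *ERD10* the change on replicate 2 was opposite in sign (-29.5%), and for *COR47* it was larger than the mean of the others (176.6%). The *COR47* changes were 0.02, -0.87 and -1.01 on replicates 1, 2 and 3. Mean changes on replicates 1 and 3 were small for *ERD10* (0.70), *COR47* (-0.49) and *COR15B* (0.33). They did not reach the size of 1 required above, so these 3 percentages are unstable.

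Genes with the most similar profile were sought as those with the smallest root mean square difference of log2 signals over the 12 arrays, after centring each probe set on its mean, among 6508 or 6509 probe sets with 1 gene and a mean above the median. For *HAI1* they were AT4G33540 (0.19), the nitrate transporter gene *NRT1.7* (0.25) and the vacuolar processing enzyme gene *BETA-VPE* (0.27). For *HAI2* they were the transcription factor gene *MYB74* (0.26), AT3G16330 (0.38) and AT1G05340 (0.39). The salt changes of *MYB74* were 2.89 (wild-type) and 3.05 (overexpressor). The genes nearest to *PYL6* were *HLL* (0.23), which encodes a mitochondrial ribosomal protein, *FLA9* (0.25), of the fasciclin-like arabinogalactan proteins, and the chloroplast ribosomal protein gene *rps16* (0.26). Those nearest to *SNRK2.8* were AT2G24580 (0.20), AT3G06980 (0.23) and AT4G28310 (0.24). All 12 arrays share the large difference between mock and salt, which dominates this measure.

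Among the 4 genes themselves, *HAI1* and *HAI2* differed by a root mean square of 0.49 on the log2 scale, and *HAI2* ranked 182 of 22745 other probe sets by closeness to *HAI1*. *PYL6* and *SNRK2.8* differed by 0.37, and *SNRK2.8* ranked 121 by closeness to *PYL6*. Pairs of a phosphatase gene with the receptor or kinase gene differed by 2.41 to 2.7. This split follows from the naming, since *HAI1* and *HAI2* came from the list of genes that were higher with salt in the overexpressor and *PYL6* and *SNRK2.8* from the list of lower ones, and 6 of the 12 arrays are those behind the lists.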

How the data were processed

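ATH1 GeneChips were hybridized with RNA of 12 seedling samples, 3 per group, and groups were taken from the sample labels. The authors computed MAS5 signals and deposited them as linear intensity values, 1 per probe set and array. Detection calls were not used, and precision is limited by how few arrays there were. Of 22810 probe sets, 64 Affymetrix controls were left out. A gene name came from the annotation (13508 probe sets) or, failing that, from the study's supplementary tables (698). Another 562 had several or conflicting genes and 7978 had none.

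For all 22746 remaining probe sets, limma 3.58.1 (R 4.3.3) was run on log2 signals with a mean for each of the 4 groups, an intensity trend and two-sided tests. Genes named were the 4 core genes, measured members of their families, up to 4 genes of each other list with the smallest adjusted p in the wild-type, and the 3 nearest profiles. The other 7 targets and the markers were named after their values were seen. The 4 genes and the lists were chosen with earlier results of these data known. The fit was tested on simulated data. Alternatives were other scalings, floors, filters and variance models, a replicate block, the omission of each array in turn, and the methods' t-test.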

Additional observations from a re-analysis of the deposited data

How the results depend on the processing

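For the 4 genes, 16 tested differences were refitted 348 times over the alternatives, and 335 of these values kept their direction and their side of the threshold. The 4 overexpressor salt changes, which have no test, were refitted 88 times, and 86 values moved by less than the replicate SD. Both shares were partly fixed in advance. Most of the 16 differences were not called with all arrays, and leaving out an array outside the groups compared cannot move the estimate. The methods' t-test on the same log2 changes (2.51 for *HAI1*, 2.91 for *HAI2*, -1.86 for *PYL6*, -1.68 for *SNRK2.8*) gave adjusted p of 0.184, 0.230, 0.152 and 0.134 in the wild-type under salt, so that these calls were lost. With a pseudocount of 16 the overexpressor changes of *HAI1* and *HAI2* were 2.84 and 2.76. With array quality weights the *HAI2* genotype difference under salt was -0.17, and the interactions of *HAI2* and *SNRK2.8* were -0.29 and 0.082. With single arrays left out, wild-type salt changes were 2.07 to 3.12 (*HAI1*), 2.35 to 3.91 (*HAI2*), -2.07 to -1.46 (*PYL6*) and -2.02 to -1.48 (*SNRK2.8*). Genotype differences under salt were then -0.21 to 0.84 for *HAI1* and -0.48 to 1.07 for *HAI2*, -0.93 to -0.30 for *PYL6* and -0.69 to -0.16 for *SNRK2.8*. Interactions were 0.01 to 1.05 for *HAI1*, -0.75 to 0.80 for *HAI2*, -0.59 to 0.03 for *PYL6* and -0.35 to 0.19 for *SNRK2.8*, and none of these was called. The interaction of *PYL6* turned positive without wild-type salt replicate 2 (0.0074) or overexpressor salt replicate 2 (0.0293). The cause was not tested.

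Replicate numbers did not pair the samples, with correlations of -0.05 to 0.09 between the deviations of same-numbered arrays. With the replicate block the 4 wild-type calls held (adjusted p = 0.00046 to 0.0014, limma). The block moved the genotype count under salt from 457 to 231 probe sets and the interaction count from 68 to 18. Over all alternatives other than leaving out arrays, counts ran from 4 (methods' t-test) to 11329 (array quality weights) for the 8904 called in the wild-type under salt and from 6099 to 10836 for the 9351 in the overexpressor. They ran from 0 to 587 for the 128 between mock-treated genotypes, from 0 to 3099 under salt and from 3 to 1282 for the interaction. With single arrays left out, these last 3 counts were 39 to 335, 31 to 1945 and 5 to 760, each highest without wild-type salt replicate 2. Leaving out arrays for the ABA-responsive targets was added after seeing the data.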
